A study of Mus musculus with 6 samples.

Results

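The members described here are the 22 transfer RNAs encoded by the mouse mitochondrial genome, measured as short fragments in small RNA libraries of the sensorimotor cortex. A read of 17 to 34 nt was assigned to a mitochondrial tRNA if it had no match in an annotated miRNA hairpin and was found on the sense strand, without mismatch, in the transcript of that tRNA. All 22 genes had reads, in 10765 distinct sequences, and stood among 47491 annotated features with at least 1 read. The study compared adult male C57BL/6J mice at postnatal day 90 whose cervical spinal cord had been transected at C5/6 (SCI, 3 libraries) with mice given control surgery, in which the cord was exposed but left undamaged (3 libraries). Surgery was done under isoflurane, and the cortex was collected individually 7 days later as bulk tissue.

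Mitochondrial tRNAs carry amino acids to the ribosomes that make the respiratory chain subunits encoded in the organelle. They are cut out of long transcripts of both strands of the mitochondrial genome: RNase P cleaves before the first base of a tRNA, RNase Z after its last base, and the enzyme TRNT1 then adds the bases CCA, which are absent from the gene. Short fragments of these tRNAs are common in small RNA libraries of tissues rich in mitochondria, such as brain. In bulk tissue a smaller number of cells of a type and less RNA per cell cannot be told apart.

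The libraries held 10585062 to 24480988 reads, and the lowest count of any tRNA in any library was 230 reads (mt-Tp). Reads of 30 to 34 nt made up 1.33%, 0.611% and 0.543% of control 1, 2 and 3 and 0.584%, 3.66% and 2.31% of SCI 1, 2 and 3, so that SCI 2, SCI 3 and control 1 were richer in long reads. Hairpins of neuron and cortex miRNAs (10 of 11 marker names found, Mir124-2hg being no hairpin) summed to 192303 to 203782 RPM (reads per 1000000 reads of the library) in control and 167600 to 186243 RPM in SCI libraries, and the liver hairpin Mir122 stood at 2.66 to 5.26 RPM in all 6. Hairpins of microglia and leukocytes (4 of 5 found) were also lower in all SCI libraries, at 937 to 1036 RPM against 1064 to 1276. The other lists overlapped between control and SCI libraries. They were at 5012 to 7287 and 4847 to 5280 RPM for oligodendrocyte (3 of 3 found), 12660 to 17898 and 12056 to 14412 for endothelial and mural cells (3 of 3) and 469 to 723 and 389 to 1024 for erythrocyte (2 of 4). Muscle hairpins (8 of 8) were at 462 to 498 and 450.3 to 515 RPM, and those of choroid plexus and epithelium (7 of 7) at 678 to 1035 and 561 to 982 RPM. All miRNA hairpins together took 78.5%, 78.9% and 79.4% of reads in control and 78.6%, 73.3% and 73.5% in SCI libraries. Reads with no match to an annotated transcript took 17.5%, 17.2% and 16.5% against 17.7%, 20.9% and 21.7%, higher in all SCI libraries. The marker levels are shares of all reads and move with this composition. The part of read length, of composition and of these markers in the tRNA results was not tested.

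The sequences below show where the most abundant fragment lay in each tRNA that is described library by library. The gene is written 5' to 3' as its DNA letters in the GENCODE M21 annotation of GRCm38, with the bases of the read in capitals. These 9 tRNAs are the 6 with the highest mean share of reads and the 5 with the smallest unadjusted p, 2 tRNAs being in both.
mt-Ts2: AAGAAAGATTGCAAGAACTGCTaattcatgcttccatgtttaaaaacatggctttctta
mt-Tv: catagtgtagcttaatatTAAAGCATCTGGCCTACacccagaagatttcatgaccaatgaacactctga
mt-Ty: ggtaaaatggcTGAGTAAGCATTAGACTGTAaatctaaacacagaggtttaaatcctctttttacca
mt-Tm: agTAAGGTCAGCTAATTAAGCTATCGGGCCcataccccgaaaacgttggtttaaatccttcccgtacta
mt-Ti: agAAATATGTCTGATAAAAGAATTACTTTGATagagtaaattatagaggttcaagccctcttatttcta
mt-Tf: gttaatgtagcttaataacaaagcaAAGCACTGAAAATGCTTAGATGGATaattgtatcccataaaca
mt-Tg: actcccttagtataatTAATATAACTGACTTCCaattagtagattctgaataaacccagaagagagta
mt-Tl1: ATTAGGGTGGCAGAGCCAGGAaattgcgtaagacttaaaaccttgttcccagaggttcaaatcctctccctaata
mt-Tp: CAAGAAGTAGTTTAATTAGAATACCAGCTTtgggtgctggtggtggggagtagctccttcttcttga

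The genes lie on chromosome M at 11613 to 11671 (mt-Ts2), 1025 to 1093 (mt-Tv), 3845 to 3913 (mt-Tm), 3706 to 3774 (mt-Ti), 1 to 68 (mt-Tf), 9391 to 9458 (mt-Tg) and 2676 to 2750 (mt-Tl1) on the plus strand. mt-Ty lies at 5260 to 5326 and mt-Tp at 15356 to 15422, both on the minus strand. Each gene is a single exon that is the whole tRNA without CCA. Of the 22 genes, 14 lie on the plus and 8 on the minus strand.

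With reads that carry the added CCA left out, as the rule does, one tRNA supplied about as many reads as the other 21 together. mt-Ts2, the serine tRNA for AGY codons, which is the shortest of the set and lacks a D arm, took 53.3% ± 2.04 (SD, n = 3) of mitochondrial tRNA reads in control and 49.6% ± 0.639 in SCI libraries. Per base of tRNA, its mean level over the 6 libraries was 59.3 RPM per nt, against 7.39 for mt-Tv, the valine tRNA, which came second, and 0.580 for mt-Tp, the proline tRNA, which came last. mt-Ts2 lay above mt-Tv, and mt-Tv above mt-Ty, in 6 of 6 libraries, but in SCI 2 mt-Tm exceeded mt-Tv. Lower in the order many neighbours did not differ beyond their spread: mt-Ty (5.89 RPM per nt) exceeded mt-Tm (5.85) in 3 of 6 libraries, mt-Ti (3.34) exceeded mt-Tf (3.13) in 3, and mt-Th (2.51) exceeded mt-Tl1 (2.499) in 2. With CCA reads counted, mt-Ts2 took 35.1% of the reads in control and 37.5% in SCI libraries, and the order became mt-Ts2 (60.2 RPM per nt), mt-Tv (19.9), mt-Tw (13.3) and mt-Tk (6.91).

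**Figure D1:**
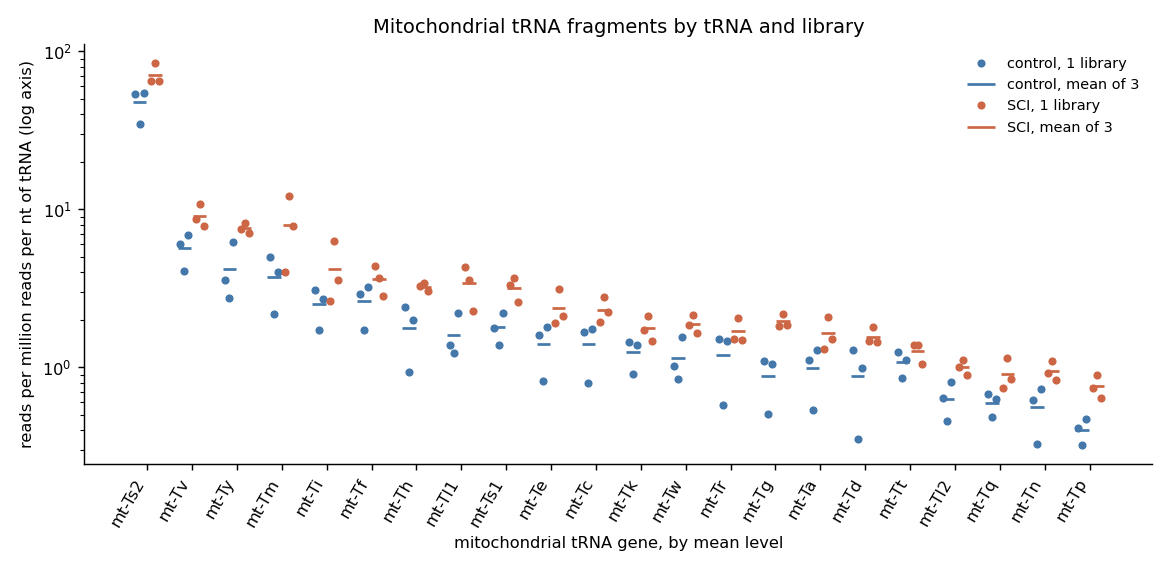
Level of each mitochondrial tRNA in RPM per nt of tRNA (log axis), with 1 point per library and a line at the mean of the 3 control (blue) and 3 SCI (orange) libraries. mt-Ts2 stands alone at the top at a mean of 59.3, the other tRNAs form a gradual slope from 7.39 to 0.580, and the SCI points lie above the control points for 17 of the 22.

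The level of mt-Ty needs a caution. Of its reads, 86.1% are also found without mismatch in a transcript of the protein-coding gene Cep295, and among them is its most abundant read, bases 12 to 31. Reads found in Cep295 alone numbered 6 to 19 per library. Without the shared reads mt-Ty stood at 44.1, 21.8 and 58.5 RPM in control and 51.2, 91.1 and 52.7 RPM in SCI libraries, and the groups overlapped. Over all mitochondrial tRNAs 5.13% of reads were shared with another annotated gene in this way, and no read was shared between 2 mitochondrial tRNAs.

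Fragments of mitochondrial tRNAs made up a larger share of the reads, though not of the distinct sequences, of the SCI libraries. In the 3 control libraries they were 0.592%, 0.367% and 0.627% of all reads, and in the 3 SCI libraries 0.771%, 1.02% and 0.758%. The means differed by 0.320 percentage points, and each 95% Wilson interval was narrower than 0.01 points. The groups did not overlap. With each distinct sequence counted once the direction turned, at 1.25%, 1.23% and 1.06% of distinct sequences in control against 1.29%, 0.918% and 0.881% in SCI libraries, with overlap. Gene by gene, the SCI libraries exceeded every control library in 17 of 22 tRNAs, where 16.1% of all 4175 features tested did so. On edgeR's TMM scale, which sets the bulk of the features equal between groups, 14 of 22 tRNAs did, against 9.39% of all features.

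No single tRNA passed the test. edgeR's quasi-likelihood test with Benjamini-Hochberg adjustment over all features called 0 of 22 tRNAs at an adjusted p under 0.05, where 2.04% of all features were called, and DESeq2 and limma-voom also called 0 of 22, against 2.01% and 0.0958% of all features. At an unadjusted p under 0.05, 3 of 22 were higher and 0 lower in SCI libraries, against 6.47% and 4.43% of all features. DESeq2 put 2 tRNAs and limma-voom 5 under that unadjusted threshold, all higher, against 4.55% and 5.49% of all features. The fold changes leaned one way: 21 of 22 were above 0, against 50.7% of all features, with a median log2 fold change of 0.44 against 0.01 over all features. Without control 2, the library with the lowest share, the median of the tRNAs was 0.24.

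The scaling moved these values. Without TMM, with all reads as library size, the median over all features was a log2 fold change of 0.31, and that of the 22 tRNAs became 0.73. The tRNAs thus lay 0.43 above the median feature with TMM and 0.42 above it without, on the log2 scale. Under the share of all reads, 22 of 22 were higher and 18 reached an unadjusted p under 0.05, all higher, where 9.96% of all features were, and again 0 passed after adjustment, against 0.91%. With no filter on low counts, which admits all 47491 features, the median over all features was 0.46 and that of the tRNAs 0.44, so the tRNAs stood above the median only of the features that passed the filter.

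**Figure D2:**
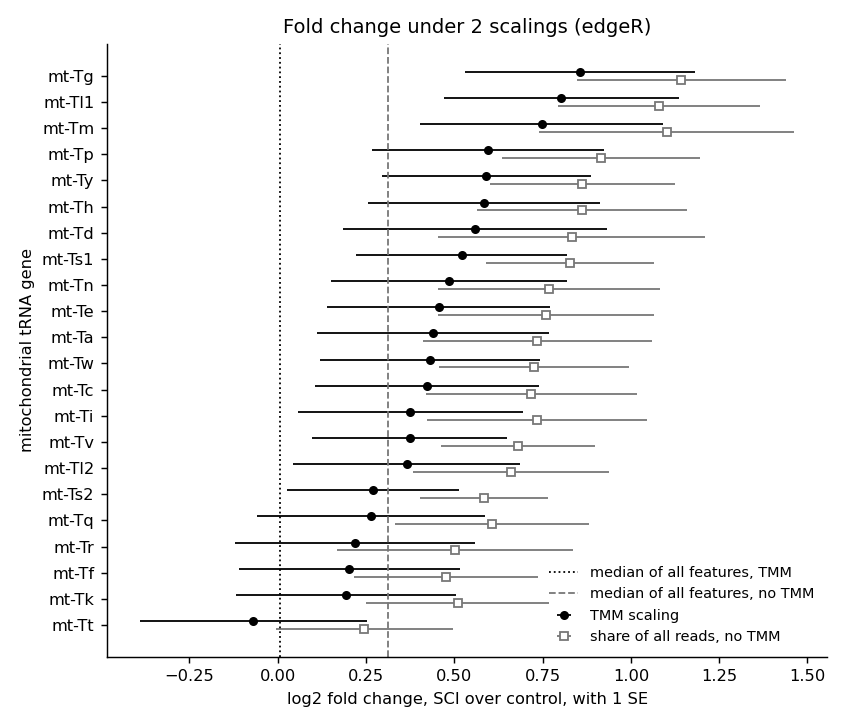
Log2 fold change of each tRNA, SCI over control, with 1 SE, from edgeR with TMM scaling (filled circles) and with all reads as library size (open squares); the vertical lines mark the median of all features under each scaling (0.01 and 0.31). All tRNAs but mt-Tt lie to the right of the TMM median, from mt-Tk at 0.19 to mt-Tg at 0.85.

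Among the abundant tRNAs, mt-Ts2 was read at 3147, 2033 and 3219 RPM in control and 3825, 4975 and 3804 RPM in SCI libraries. Every SCI library was higher than every control library, but the log2 fold change of 0.27 ± 0.24 (SE) did not pass (adjusted p = 0.800, edgeR), and without control 2 it was 0.16. mt-Tv had 416, 282 and 477 RPM in control and 602, 742 and 539 RPM in SCI libraries, without overlap, and a log2 fold change of 0.37 ± 0.28 (adjusted p = 0.728), or 0.25 without SCI 1. mt-Ty, the tyrosine tRNA, had 240.2, 184 and 416 RPM against 500.0, 553 and 476 RPM, also without overlap, with the reads shared with Cep295 included (log2 fold change 0.59 ± 0.30, adjusted p = 0.501).

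mt-Tm, the methionine tRNA that serves both initiation and elongation in mitochondria, differed from these in that its groups overlapped. It had 343, 151 and 276 RPM in control and 278, 836 and 538 RPM in SCI libraries (log2 fold change 0.75 ± 0.34, adjusted p = 0.429). mt-Ti, the isoleucine tRNA, had 214, 119 and 186 RPM in control and 182, 434 and 247 RPM in SCI libraries (0.37 ± 0.32, adjusted p = 0.768). Without SCI 2 the log2 fold change of mt-Ti was 0.15, without control 2 it was 0.22 and without control 3 0.24. Both were highest in SCI 2, as were 19 of the 22 tRNAs. mt-Tf, the phenylalanine tRNA at the start of the genome, had 197, 118 and 220.5 RPM against 299, 252 and 193 RPM, with overlap (0.20 ± 0.31, adjusted p = 0.920). Its fold change was -0.13 without SCI 1, 0.05 without control 2 and 0.34 without either SCI 2 or SCI 3.

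The 3 largest fold changes belonged to mt-Tg, mt-Tl1 and mt-Tm. mt-Tg, the glycine tRNA, was read at 74.6, 34.7 and 71.6 RPM in control and 124, 149 and 127 RPM in SCI libraries. The SCI values lay close together and above all control values, with a log2 fold change of 0.85 ± 0.33 (unadjusted p = 0.0176, adjusted p = 0.272, edgeR). It was the only tRNA whose share of mitochondrial tRNA reads was higher in all SCI than in all control libraries (1 of 22, 4.55%), at 1.26%, 0.945% and 1.14% against 1.61%, 1.46% and 1.67%. mt-Ts2 was the only one whose share was lower in all SCI libraries (1 of 22, 4.55%). Both statements leave CCA reads out. With CCA reads counted, the share of mt-Ts2 was instead higher in all SCI libraries. It was then 35.5%, 33.5% and 36.3% in control and 37.8%, 36.5% and 38.2% in SCI libraries. On that base the shares of mt-Tv and mt-Tw were lower in all SCI libraries, and that of mt-Tg stayed higher.

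mt-Tl1, the leucine tRNA for UUR codons, which follows the 16S rRNA gene on the genome, had 104, 92.5 and 165 RPM in control and 325, 269 and 170 RPM in SCI libraries. SCI 3 stood just above control 3, and the log2 fold change was 0.80 ± 0.33 (adjusted p = 0.346). Without SCI 1 it was 0.40. mt-Tp was rarer, at 27.6, 21.7 and 31.4 RPM against 49.9, 59.8 and 42.8 RPM, with no overlap (0.60 ± 0.33, adjusted p = 0.571).

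The other 13 tRNAs had control means of 39.6 to 124 RPM and SCI means of 64.7 to 219.6 RPM. Their log2 fold changes ran from -0.07 to 0.58, with adjusted p from 0.585 to 0.978 (edgeR). The lowest was mt-Tt, the threonine tRNA, at 83.6, 57.5 and 74.8 RPM in control and 93.0, 92.6 and 70.5 RPM in SCI libraries, which is the 1 tRNA below 0 with TMM and above 0 (0.25) without. The 8 tRNAs of the minus strand and the 14 of the plus strand had medians of 0.47 and 0.37. Per library, the sum over the minus strand was 781, 506 and 1026 RPM in control and 1247, 1568 and 1214 RPM in SCI libraries.

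Other products of the same genome were compared by the same fit. Of 15 mitochondrial rRNAs and mRNAs, 12 were higher and 3 lower, 0 passed, 0 reached an unadjusted p under 0.05, and the median log2 fold change was 0.44. As a share of all reads every mRNA overlapped between groups. The most abundant mRNA, mt-Co1, was at 152, 89.6 and 174 RPM in control and 118, 446 and 203 RPM in SCI libraries. The rRNA reads came almost wholly from mt-Rnr2, the 16S rRNA, at 7024, 7756 and 8060 RPM in control and 8354, 8659 and 9367 RPM in SCI libraries (log2 fold change -0.13 ± 0.25, adjusted p = 0.927, edgeR with TMM). As a share of all reads mt-Rnr2 was thus higher in all SCI libraries, and with TMM its fold change was below 0. The ratio of tRNA to rRNA reads was 0.800, 0.460 and 0.757 in control and 0.896, 1.121 and 0.786 in SCI libraries, and the groups overlapped.

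The fragments were short. Reads of 17 to 20 nt made up 44.0% to 57.1% of mitochondrial tRNA reads per library and reads of 21 to 24 nt 26.5% to 29.4%. Both classes were higher in all SCI libraries: those of 17 to 20 nt were at 2662, 2030 and 3504 RPM in control and 4401, 4477.4 and 3895 RPM in SCI libraries, and those of 21 to 24 nt were at 1720, 1046 and 1809 RPM against 2263, 2717 and 2007 RPM. These are shares of all reads and were not tested as a class. Reads of 30 to 34 nt overlapped, at 373, 113 and 137 RPM in control and 116, 886 and 349 RPM in SCI libraries, and were high in the same 3 libraries that were rich in long reads of every kind.

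mt-Tm had the largest part of long reads. Of its reads, 77.2% were 25 to 34 nt long, against 12.8% for mt-Ts2 and 2.51% for mt-Ty. Next came mt-Ti with 40.9% and mt-Tf with 37.7%. The most frequent length was 28 nt in mt-Tm and 30 nt in mt-Ti. The mt-Tm reads of 25 to 29 nt were at 149, 55.1 and 126 RPM in control and 141, 400.1 and 294 RPM in SCI libraries. SCI 1, which held few long reads of any kind, lay within the control range, and the part of read length in the mt-Tm values was not tested.

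Between 41.0% and 51.0% of the mitochondrial tRNA reads of a library ended on 1 of the 3 bases of an anticodon, and 23.5% to 25.8% of those of the 21 tRNAs other than mt-Ts2. The median over the 22 tRNAs was 12.3%. The anticodon was located in each tRNA by a script, as the triplet that reads the tRNA's own amino acid in the vertebrate mitochondrial code in the middle of a loop of 7 bases. In the sequences above the capitals stop at the last base of the anticodon in mt-Ts2 (bases 20 to 22), mt-Tv (33 to 35), mt-Ty (29 to 31), mt-Ti (30 to 32) and mt-Tg (31 to 33), and at the base just before the anticodon in mt-Tm and mt-Tp. Over all mitochondrial tRNA reads, 42.1%, 51.0% and 46.5% in control and 44.8%, 41.0% and 43.8% in SCI libraries had their last base in the anticodon. The groups overlapped.

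This was a feature of many tRNAs, not of mt-Ts2 alone. The share of reads ending in the anticodon was 77.9% for mt-Ty, 63.5% for mt-Ts2, 41.5% for mt-Tl2, 38.0% for mt-Ti and 36.8% for mt-Tm, as means over the 6 libraries. The value of mt-Ty includes the 86.1% of its reads shared with Cep295, among them the read of bases 12 to 31, which ends in the anticodon. Spread evenly over all possible ends of a read of at least 17 nt, ends would fall there in 5.08% to 6.98% of reads, depending on the length of the tRNA. Of the 22 tRNAs, 16 exceeded that share, 12 of them at least 2-fold, and in 8 the most frequent end of all was an anticodon base. The even spread takes no account of where reads start or of the upper limit on their length. In mt-Ts2, with its anticodon at bases 20 to 22, 59.0% of reads started at base 1 and 26.3% at base 3. Short reads with these starts must end in or near the anticodon. The part of the start positions in the excess over an even spread was not tested. At the other extreme were mt-Tl1 (0.120%), mt-Tt (0.259%) and mt-Tr (1.09%), whose reads ended elsewhere, those of mt-Tl1 most often at base 21. The anticodon of mt-Tl1 lies at bases 36 to 38, out of reach of a read of at most 34 nt that starts at base 1. Such reads made up 54.8% of mt-Tl1 reads, as a mean over the 6 libraries, so its low share is partly set by the length limit.

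**Figure D3:**
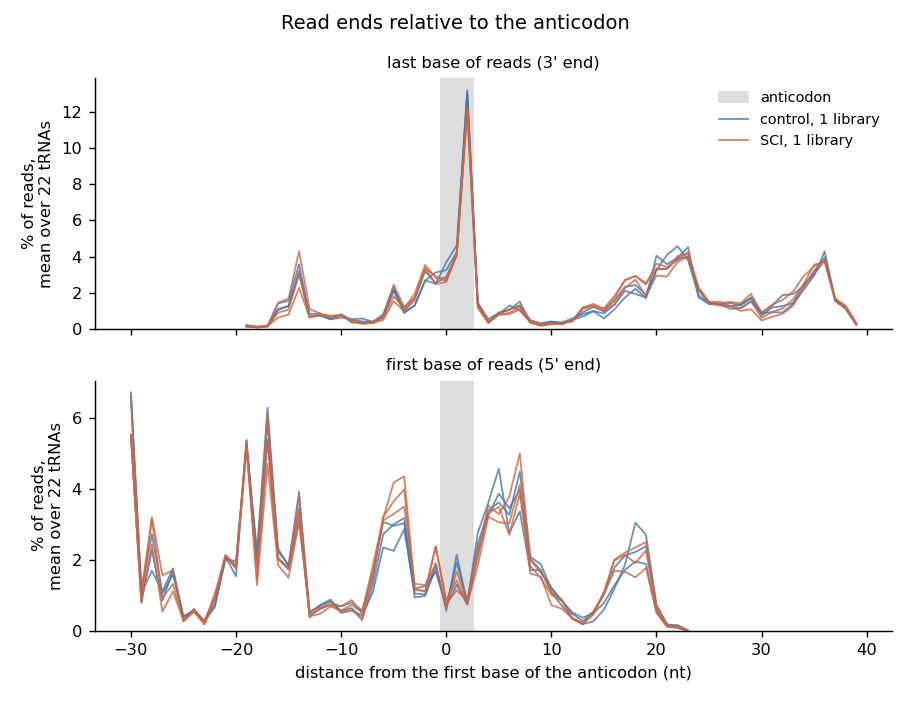
Percent of reads whose last base (top) or first base (bottom) lies at each distance from the first base of the anticodon, averaged over the 22 tRNAs with equal weight, 1 line per library (control blue, SCI orange), anticodon shaded. The ends peak at the anticodon's last base, at 13.1% in control and 12.2% in SCI libraries, and the lines of both groups run together.

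Ending in the anticodon differed between groups without overlap in 2 of 22 tRNAs (9.09%), both lower in SCI libraries. In mt-Td, the aspartate tRNA, the share was 11.4%, 11.5% and 8.45% in control and 3.92%, 4.90% and 3.44% in SCI libraries. In mt-Tw, the tryptophan tRNA, it was 32.9%, 43.8% and 35.04% against 31.6%, 30.2% and 32.6%. These shares were chosen after their values were seen and were not tested. Features other than the 22 tRNAs have no such share to compare with. Random relabelling of 3 libraries against 3 separates the groups in either direction with a probability of 0.1, and 2 of 22 is near that.

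By position, reads that started within 3 nt of the first base (5' reads) made up 60.04%, 61.7% and 54.8% of mitochondrial tRNA reads in control and 54.9%, 58.3% and 56.9% in SCI libraries. Reads that instead ended within 3 nt of the last base (3' reads) made up 5.32% to 6.01% per library, and the rest were internal. The 5' reads were mostly those of mt-Ts2, 91.4% of whose control reads were 5' reads, and mt-Ts1 (83.4%), mt-Tm (65.0%), mt-Tq (64.1%) and mt-Tl1 (63.4%) shared this pattern. In 17 tRNAs internal reads were the largest part. In no position did the groups separate as a share of the tRNA reads.

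Split by position, 0 of 66 features passed in edgeR, where 1.99% of all 4219 features of that table passed, and DESeq2 called 1, where it called 2.01%. The SCI libraries exceeded all control libraries in 34 of 66, against 16.3% of all features. At an unadjusted p under 0.05, 10 of 66 were higher and 0 lower, against 6.54% and 4.36% of all features, and 7 of these 10 were 3' features. The strongest was the 3' part of mt-Tg, at 15.6, 4.63 and 17.9 RPM in control and 32.0, 57.0 and 43.4 RPM in SCI libraries. All SCI values lay above all control values, and the log2 fold change was 1.51 ± 0.40 with an adjusted p of 0.0648 in edgeR and 0.0175 in DESeq2. It also passed in edgeR with the replicate number as a block (adjusted p = 0.0215), without control 3 (0.0477), without SCI 1 (0.0320) and with no filter on low counts (0.00201), and did not without control 1, control 2, SCI 2 or SCI 3, where the adjusted p ran from 0.0948 to 0.189. Without control 2 the log2 fold change was 1.14. The settings in which it passed also called other numbers of features over the whole table. These were 145 of 4219 with the block, 263 of 4964 without control 3 and 342 of 5675 without SCI 1. With no filter 346 of 47535 were called, and 84 of 4219 in the first fit.

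The other 3' features under that unadjusted threshold had smaller fold changes. The 3' reads of mt-Ti were at 6.98, 5.38 and 10.2 RPM in control and 20.2, 16.5 and 20.3 RPM in SCI libraries (log2 fold change 1.06 ± 0.36, adjusted p = 0.189, edgeR), and those of mt-Th, the histidine tRNA, at 9.68, 5.196 and 11.3 RPM against 20.4, 21.8 and 19.9 RPM (0.96 ± 0.35, adjusted p = 0.235). The 3' parts of mt-Tl1, mt-Tp, mt-Tm and mt-Ts2 had log2 fold changes of 1.14, 0.97, 0.96 and 0.76. In all 7 tRNAs, which were picked by p in these same libraries, the SCI libraries lay above the control libraries. Among all 22 3' features this held for 12, against 16.3% of all features. Among 5' features, mt-Tl1 stood at 56.5, 63.3 and 110.9 RPM in control and 268, 165 and 114 RPM in SCI libraries, again without overlap (0.98 ± 0.38, adjusted p = 0.295), and without SCI 1 the log2 fold change was 0.39.

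The rule leaves out the mature 3' end. Reads that run to the last base of a tRNA and carry an added C, CC or CCA have no match in the gene, and they were counted separately after the data had been seen. They are the bulk of the reads of some tRNAs: with them included, they made up 91.7% ± 2.24 of mt-Tw reads in control and 85.4% ± 0.715 in SCI libraries, and 73.4% and 79.8% of those of mt-Tk, the lysine tRNA. In mt-Ts2 they made up 1.44% and 1.40%. The 5 sequences below are the most abundant such read of the tRNAs in which they are plentiful, with the added CCA in capitals.
mt-Tw, 17 nt: aagtttaacttctgCCA
mt-Tv, 18 nt: caatgaacactctgaCCA
mt-Tk, 31 nt: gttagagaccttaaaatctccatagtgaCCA
mt-Tp, 21 nt: gtagctccttcttcttgaCCA
mt-Tt, 18 nt: tctcttctcaagacaCCA

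CCA reads took a smaller share of mitochondrial tRNA reads in SCI libraries. Among all reads of these tRNAs, CCA reads included, they made up 34.2%, 40.5% and 30.4% in control and 24.99%, 26.6% and 24.8% in SCI libraries, and every SCI library lay below every control library. Their level among all reads overlapped, at 3073, 2502 and 2736 RPM in control and 2568, 3680 and 2502 RPM in SCI libraries, while the level of the other fragments did not. On the same base, 5' reads made up 39.5%, 36.7% and 38.2% in control and 41.2%, 42.8% and 42.8% in SCI libraries, without overlap. The share was lower in all SCI libraries in 6 of 22 tRNAs (27.3%) and higher in 0. These 6 were mt-Te, mt-Tm, mt-Tp, mt-Tq, mt-Tv and mt-Tw, and the share was not tested.

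**Figure D4:**
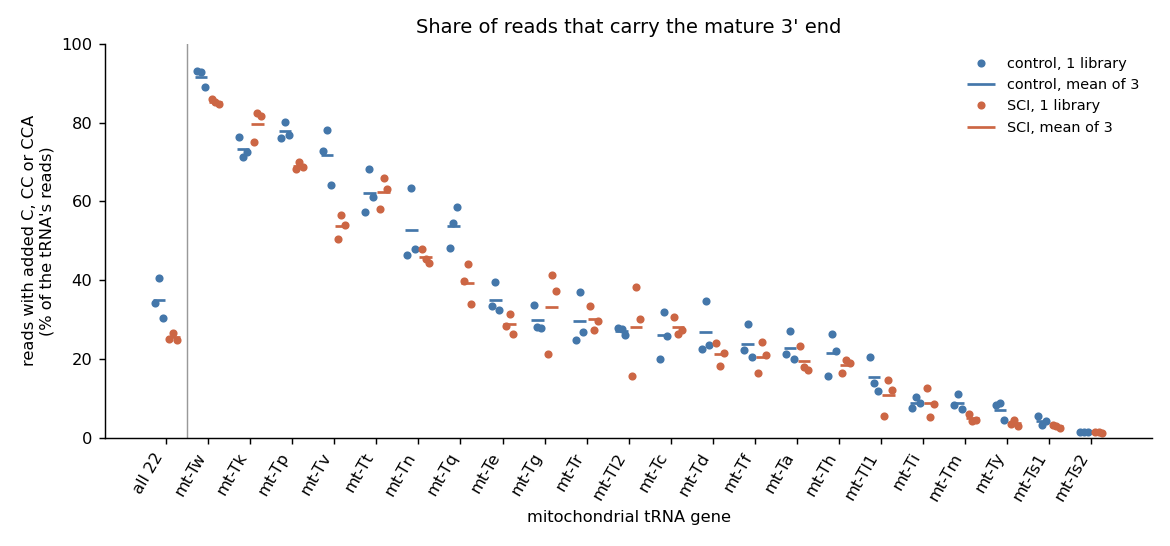
Reads with an added C, CC or CCA as a percent of all reads of each tRNA, with 1 point per library and a line at the mean of the 3 control (blue) and 3 SCI (orange) libraries; the first column gives all 22 tRNAs together. The SCI points lie below the control points in the first column and in 6 tRNAs, among them mt-Tv, where means of 71.7% and 53.7% were measured.

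mt-Tv showed the widest gap. Its CCA share was 72.8%, 78.2% and 64.2% in control and 50.4%, 56.5% and 54.1% in SCI libraries. In level, its CCA reads were at 1116, 1008 and 853 RPM in control and 613, 964 and 636 RPM in SCI libraries, with overlap, and a log2 fold change of -0.82 ± 0.29 (adjusted p = 0.220, edgeR). Because CCA reads outnumber the others in mt-Tv and mt-Tw, counting them turned the fold change of these tRNAs from 0.37 to -0.37 and from 0.43 to -0.41, none of which passed. mt-Tk ran the other way, with CCA reads at 303, 147 and 237 RPM in control and 341, 651 and 426 RPM in SCI libraries (0.70 ± 0.30, adjusted p = 0.384).

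Single CCA reads of one tRNA that differ by 1 base at their 5' end had different values. The 2 reads below were picked after their values were seen, as the CCA reads of smallest p in mt-Tv and mt-Tw, and each starts 1 base before the most abundant read of the same tRNA shown above.
mt-Tv, 19 nt: ccaatgaacactctgaCCA
mt-Tw, 18 nt: caagtttaacttctgCCA

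The 19 nt read of mt-Tv was at 165, 136 and 120 RPM in control and 38.8, 61.8 and 43.8 RPM in SCI libraries, a log2 fold change of -1.63 ± 0.23 with an adjusted p of 0.126 in edgeR and 0.00045 in DESeq2. The 18 nt read of the same tRNA was at 162, 269 and 208 RPM in control and 203, 229.5 and 199.7 RPM in SCI libraries, with overlap (-0.09 ± 0.20). The 18 nt read of mt-Tw was at 222, 155 and 185 RPM in control and 85.4, 118 and 74.1 RPM in SCI libraries (-1.10 ± 0.23, adjusted p = 0.126 in edgeR and 0.0332 in DESeq2), while its 17 nt read was at 477, 429 and 463 RPM against 547, 496 and 408 RPM. Of 476 CCA reads tested, 49 were higher and 19 lower at an unadjusted p under 0.05 in edgeR, and 0 passed. Of all 31242 sequences, 9.83% were higher and 7.07% lower at that threshold, and 0 passed. DESeq2 called 6 (1.26%), 3 higher and 3 lower, where it called 7.19% of all sequences, and the 3 lower ones were from mt-Tv and mt-Tw. Nuclear tRNAs were not compared here, so a short CCA read that also ends a nuclear tRNA would not have been noticed.

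**Figure D5:**
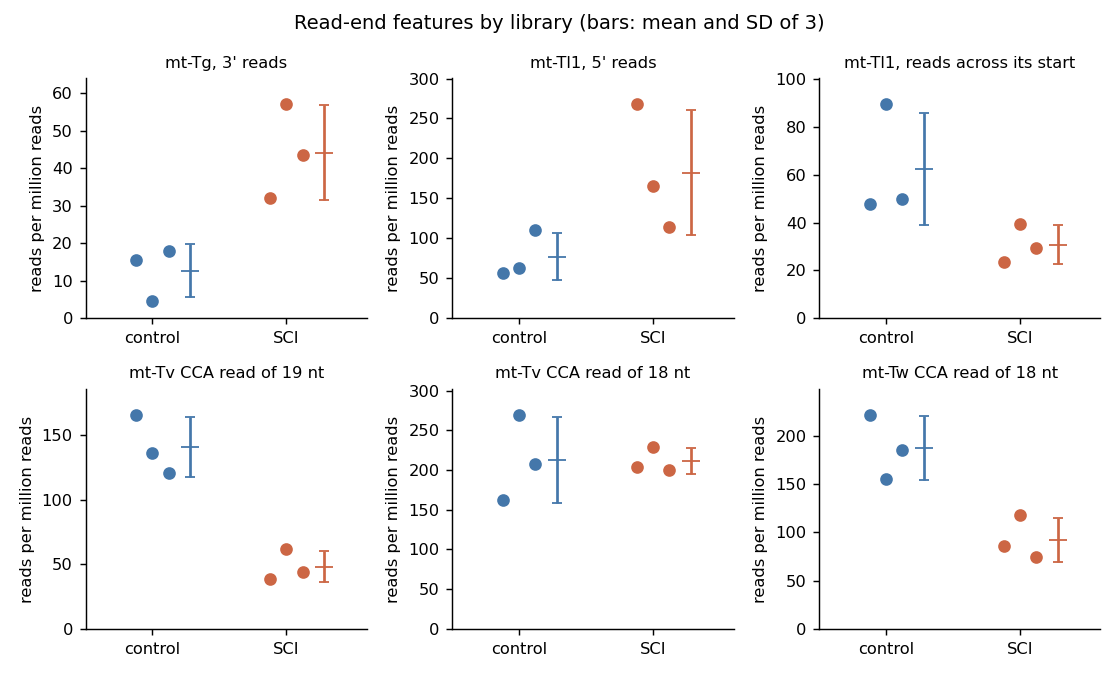
Level in RPM of 6 read-end features, with 1 point per library and the mean and SD of each group of 3. The 3' reads of mt-Tg and the 5' reads of mt-Tl1 are higher in all SCI libraries, the reads across the start of mt-Tl1, the 19 nt CCA read of mt-Tv and the 18 nt CCA read of mt-Tw are lower in all SCI libraries, and the 18 nt CCA read of mt-Tv overlaps.

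Reads that cross the boundary of a tRNA gene come from RNA that was joined there. They were counted, also after seeing the data, where at least 2 bases lay on each side. Of all such features, 3 had enough reads to test, 1 of them the start of mt-Tl1, where the tRNA follows the 16S rRNA without a gap. The 3 most abundant of its 109 distinct reads are shown with the bases of the tRNA in capitals.
mt-Tl1 junction, 25 nt: ctctaacctagagaaggttATTAGG
mt-Tl1 junction, 27 nt: ccctctaacctagagaaggttATTAGG
mt-Tl1 junction, 24 nt: ctctaacctagagaaggttATTAG

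The most abundant held 19 bases of rRNA and 6 of the tRNA. Summed, reads across this junction were at 48.0, 89.7 and 50.0 RPM in control and 23.7, 39.5 and 29.4 RPM in SCI libraries, lower in all SCI libraries. The log2 fold change was -1.46 ± 0.39, with an adjusted p of 0.0752 in edgeR, where 1.96% of all 4335 features of that table passed, and 0.0283 in DESeq2, where 1.94% did. Of the 91 mitochondrial tRNA features in that table it was the 1 that was lower in all SCI libraries as a share of reads, against 2.65% of all features. In edgeR it also passed without control 3 (0.0121) and with no filter on low counts (0.00407), and did not without any of the other 5 libraries, where the adjusted p ran from 0.0521 to 0.249. Without control 2, its highest library, the value was -0.93. As a share of all reads the value was -1.02. Over the whole table, 265 of 4989 features passed without control 3 and 346 of 47574 with no filter. The 5' reads of mt-Tl1, which start at the same boundary, were higher in all SCI libraries.

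Single sequences of the tRNAs themselves were also fitted beside all other reads. Of 1272 tested, 0 passed in edgeR, where 0.0% of all 31242 sequences passed, 249 (19.6%) were higher and 8 (0.629%) lower at an unadjusted p under 0.05, against 9.83% and 7.07% of all. DESeq2 called 45 (3.54%), all higher, where it called 7.19% of all. The DESeq2 calls came from 13 tRNAs, with 7 from mt-Tv, 6 from mt-Th and 5 each from mt-Ts2 and mt-Tl1. The 3 reads of smallest p in each direction are shown within their tRNAs, first those that were higher and then those that were lower in SCI libraries.
mt-Ti, higher: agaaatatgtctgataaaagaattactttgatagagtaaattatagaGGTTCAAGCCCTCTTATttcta
mt-Th, higher: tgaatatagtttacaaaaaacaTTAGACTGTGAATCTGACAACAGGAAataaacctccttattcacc
mt-Tc, higher: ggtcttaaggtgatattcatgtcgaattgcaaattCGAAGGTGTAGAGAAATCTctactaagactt
mt-Tf, lower: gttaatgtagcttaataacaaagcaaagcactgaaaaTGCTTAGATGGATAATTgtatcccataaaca
mt-Tc, lower: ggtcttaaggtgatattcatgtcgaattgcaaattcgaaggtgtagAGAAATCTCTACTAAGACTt
mt-Td, lower: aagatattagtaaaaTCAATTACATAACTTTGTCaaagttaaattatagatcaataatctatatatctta

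The mt-Ti read, bases 48 to 64 near its 3' end, was at 1.05, 0.756 and 0.980 RPM in control and 3.01, 3.29 and 3.31 RPM in SCI libraries (log2 fold change 1.68 ± 0.30, adjusted p = 0.126 in edgeR and 0.000998 in DESeq2). The mt-Th and mt-Tc reads stood below 1.2 RPM in every library and had log2 fold changes of 2.43 and 2.22. The 2 reads of mt-Tc were picked for opposite directions, so that contrast is no result. Of 75 mt-Tc reads tested, 18 were higher and 2 lower at an unadjusted p under 0.05 (edgeR), against 9.83% and 7.07% of all sequences. The higher read covers bases 36 to 54. The lower one, bases 47 to 65 near the 3' end, was at 4.75, 2.83 and 3.96 RPM in control and 1.37, 2.26 and 1.96 RPM in SCI libraries (-1.13 ± 0.35). The mt-Td read, bases 16 to 34, ends at the last base of its anticodon and was at 1.57, 0.472 and 1.22 RPM against 0.342, 0.470 and 0.151 RPM (-1.87 ± 0.58).

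Within mt-Ts2 the single reads spanned a range of fold changes. The read of bases 1 to 22 was at 460, 314 and 543 RPM in control and 546, 865 and 568 RPM in SCI libraries (log2 fold change 0.50 ± 0.27, adjusted p = 0.410 in edgeR). The read of bases 1 to 20 was at 44.9, 43.8 and 78.6 RPM against 123, 135 and 116 RPM (1.08 ± 0.26, adjusted p = 0.127 in edgeR and 0.0306 in DESeq2). Bases 3 to 21 were at 343, 366 and 427 RPM against 508, 392 and 453 RPM (0.18 ± 0.17), and bases 3 to 22 at 258, 245 and 300.1 RPM against 316, 258 and 244 RPM (-0.05 ± 0.18). The first pair did not overlap between groups and the second pair did, but other reads with these starts went both ways. Bases 1 to 21 and 1 to 19 did not overlap, and bases 1 to 25 and 1 to 23 did. Bases 3 to 20 did not overlap, with all SCI libraries higher. The difference between these reads was not tested.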

How the data were processed

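The authors deposited, for each of the 6 libraries, a table of distinct read sequences of 17 to 34 nt with their raw read counts; adapter trimming, any filter and any aligner are not given in the sources used here, and the submitters' processing notes name GRCm38. RNA was extracted with the mirVana kit and made into libraries with HD adapters, per the labels' protocols. Ligation needs free ends and reverse transcription can stop at modified bases, so read counts are not tRNA counts. The values are whole numbers with a different total in each library.

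Each sequence was matched without mismatch to the sense strand of GENCODE M21 transcripts. Reads in a miRNA hairpin were left out of the mitochondrial tRNA counts. They stayed in the fits and in the shares over all features and all sequences. Reads in more than 10 genes (0.259% to 0.457% of reads) were not tested as part of a gene. Counts were fitted with edgeR 4.0.16 (TMM, quasi-likelihood, filterByExpr with a minimum count of 10, Benjamini-Hochberg over the whole table, threshold 0.05), with limma 3.58.1 and DESeq2 1.42.0 as alternatives, in R 4.3.3. Shares and ratios are described without a test; an exact permutation test of 3 against 3 cannot go below 0.1. For the share of mitochondrial tRNA reads among all reads, 95% Wilson intervals were computed, which cover counting error only. Other percentages carry no interval.

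The members and lists were chosen with earlier results of these data known. Library-by-library values are given for the 6 tRNAs of highest mean share and the 5 of smallest p, sequences for their most abundant read and for the 3 reads of smallest p in each direction. The CCA, junction and anticodon counts were added after the data were seen. Samples were collected individually per the labels, and no 2 libraries agreed within sampling noise.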

Additional observations from a re-analysis of the deposited data

How the results depend on the processing

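The count of 0 tRNAs past the threshold was the same under all 17 alternatives run. Among the 5', internal and 3' features, 1 passed with the DESeq2 test, 1 with no filter on low counts and 1 with the replicate block, and 0 to 1 passed when each library was left out. Among single sequences 45 of 1272 passed with the DESeq2 test, where 2246 of all 31242 sequences did. When each library was left out 0 to 23 passed. The 23, of 1575 tested, came without SCI 1, where 3546 of all 38971 sequences passed, a larger part than of the tRNA sequences. Among the CCA and junction features 1 passed with the DESeq2 test, 1 with no filter, and 0 to 1 when each library was left out (1 without control 3). Of 374 fold changes of single tRNAs over these alternatives, 364 kept their direction. With CCA ends counted, mt-Tv was at -0.37, mt-Tq at -0.11 and mt-Tw at -0.41. mt-Tt was at 0.25 with all reads as library size, 0.17 with a minimum count of 50, and -0.30 to 0.032 when each library was left out. On leaving out libraries mt-Tf ranged from -0.13 (without SCI 1) to 0.34 and mt-Tr from -0.075 (without control 2) to 0.44. The cause was not tested.

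The difference in the share of all reads was -0.152 percentage points when each distinct sequence was counted once, and 0.236 to 0.369 when each library was left out. With 5' and 3' reads defined by the exact end, the differences in share were 1.68 points at the 5' end, -1.34 inside and -0.336 at the 3' end. When each library was left out, the 3' difference ranged from -0.0620 to 0.267.

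Same-numbered libraries did not deviate together (correlations of 0.0729, -0.234 and 0.0656), so the numbers were not taken to pair the samples. The replicate block put 143 features past the threshold where the fit without it put 85, and 0 of the 22 tRNAs. Over all features the count was 4 with limma-voom, 8 with a minimum count of 50, 345 with no filter, and 4 to 347 when each library was left out (4 without control 2, 347 without SCI 1 and 273 without control 3). Leaving out reads that also match the nuclear genome was not run, as no genome was used here.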

Other observations

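Reads on the strand opposite to the 22 tRNAs were rare. They summed to 51.6, 53.6 and 58.3 RPM in control and 31.3, 68.5 and 38.5 RPM in SCI libraries, and the groups overlapped.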
